A study of Mus musculus with 12 samples.

Results

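Described here are 10 immediate early genes of the mouse cochlea, each found by its name among the noncontrol probes: the AP-1 subunits Fos, Fosb and Junb, the stress-induced factor Atf3 of the same leucine zipper class, the zinc finger factor Egr1, the nuclear receptor Nr4a1, the basic helix-loop-helix factor Npas4, the nuclear protein Ier2, the MAP kinase phosphatase Dusp1 and the synaptic protein Arc. All 10 were on the array, among 19505 genes tested, and were read by 34 of 165865 probes. Immediate early genes are transcribed within minutes of a stimulus from factors already present in the cell, without new protein synthesis. Calcium entry and growth factor signaling reach them through kinases such as ERK and through the transcription factors SRF and CREB, and most of their transcripts are short lived. In the inner ear, as in other tissues, they respond to sound, injury and handling.

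Each cochlea of male C57BL/6 mice aged 6 weeks had been cut into an apical, a middle and a basal turn, and the turns were compared to find genes that differ along the tonotopic axis. There were 12 single-color exon arrays, 4 per turn, each hybridized with RNA from 25 ng of total RNA. The labels name no treatment, the turns held lateral wall, organ of Corti and spiral ganglion together, and dissection was done in RNAlater, which preserves RNA. The turns came from 4 mice in all, and which arrays of different turns share a mouse is not given in the labels.

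The arrays were similar in brightness, with a 75th percentile of the signal between 534 and 722 before scaling and between 77.4% and 81.4% of spots well above background, and no spot was saturated. Each turn was on a slide of its own, so turn and slide cannot be told apart in any comparison below. The labelled tissue was checked by markers: all 6 hair cell markers and 7 neuronal markers had at least 1 probe well above background on every array. Of the neuronal markers 6 were called higher at the apex than at the base, and Prph was called lower (-0.34, limma adjusted p = 0.0335). The summed signal of the hair cell markers was 13918 to 18232 at the apex, 10692 to 12380 in the middle turn and 2975 to 5457 at the base, and that of the neuronal markers 24592 to 32085, 21958 to 39169 and 4503 to 20099 in the same order. The summed signal of 7 markers of neutrophils and marrow varied widely, from 935 to 35767 at the apex, 753 to 8369 in the middle turn and 1069 to 2008 at the base. Among 23547 probes that were above background on no array, the median signal was between 5.92 and 6.85 on the apical and basal arrays and on middle replicate 3, which had 6.02, but it was 8.24, 7.78 and 8.10 on middle replicates 1, 2 and 4.

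The promoters of 4 of the genes are shown because their signals rose and fell together across arrays, as described below. RefSeq start sites (GRCm38.p6) were matched for 7 of the 10 genes (Fos, Fosb, Junb, Atf3, Dusp1, Nr4a1 and Npas4), and the 250 bases before each start were searched on both strands. Capitals mark the core of the cAMP response element, TGACG or its reverse complement CGTCA, which is bound by CREB and ATF proteins.
Fos promoter, chr12:85473640-85473889, plus strand: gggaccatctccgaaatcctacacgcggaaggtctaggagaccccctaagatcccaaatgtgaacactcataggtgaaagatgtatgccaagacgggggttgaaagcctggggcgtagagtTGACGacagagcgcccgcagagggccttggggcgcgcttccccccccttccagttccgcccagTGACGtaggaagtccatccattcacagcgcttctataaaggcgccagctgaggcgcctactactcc
Junb promoter, chr8:84978749-84978998, minus strand: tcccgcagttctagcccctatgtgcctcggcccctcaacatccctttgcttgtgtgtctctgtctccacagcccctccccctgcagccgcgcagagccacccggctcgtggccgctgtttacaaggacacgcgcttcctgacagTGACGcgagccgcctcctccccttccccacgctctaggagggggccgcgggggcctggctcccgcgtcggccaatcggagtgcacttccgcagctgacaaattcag
Dusp1 promoter, chr17:26508473-26508722, minus strand: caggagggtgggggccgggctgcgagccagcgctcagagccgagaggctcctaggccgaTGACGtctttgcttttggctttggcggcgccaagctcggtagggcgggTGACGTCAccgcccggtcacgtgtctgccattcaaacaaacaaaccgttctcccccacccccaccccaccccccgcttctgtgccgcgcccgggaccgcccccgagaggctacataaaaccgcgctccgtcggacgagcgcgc
Nr4a1 promoter, chr15:101266596-101266845, plus strand: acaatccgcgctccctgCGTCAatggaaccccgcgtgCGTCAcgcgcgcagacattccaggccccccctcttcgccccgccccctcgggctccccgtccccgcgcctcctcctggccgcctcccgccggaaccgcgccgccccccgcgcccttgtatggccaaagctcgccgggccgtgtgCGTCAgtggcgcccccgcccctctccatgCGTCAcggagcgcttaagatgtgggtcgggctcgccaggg

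The core TGACG lay in 7 of the 7 promoters, against 17.8% of 32851 mouse promoters of the same length. The Nr4a1 promoter held 4 copies, whose farthest bases lay at -233, -213, -69 and -40 from the start site, and the Fos promoter held 2, at -129 and -66. The palindrome TGACGTCA, which contains the core on both strands, was found only in Dusp1, at -143, and in 1.55% of all promoters. The site GCGNGGGCG, bound by Egr factors, was in Fosb and Nr4a1 and in 4.70% of all promoters. The AP-1 site TGANTCA was in none of the 7 windows and in 6.75% of all, and the CArG box of SRF was in none and in 1.47% of all. These are matches of letters in a short window. The 32851 promoters were not matched to the 7 for GC content, which was 58.4% to 74.4% in the 7, and its part in the shares was not tested. The core was also in Fosb, Atf3 and Npas4, whose deviations from the turn mean had r of 0.37, 0.33 and 0.15 with those of Fos. Egr1, with an r of 0.60 to Fos, had no start site matched. A link between sites and signals was not tested.

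Each probe was an oligonucleotide of 60 bases designed to an exon. The probes below read Junb, Fos and Npas4, the genes called between turns, and for Npas4 they are the 2 well above background on all 12 arrays, with positions on the build mm9.
Junb probe 1, chr8:87501881-87501940, minus strand: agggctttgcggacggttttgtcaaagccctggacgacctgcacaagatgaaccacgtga
Fos probe 2, chr12:86815889-86815948, plus strand: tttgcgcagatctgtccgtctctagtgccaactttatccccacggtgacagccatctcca
Npas4 probe 3, chr19:4988477-4988536, minus strand: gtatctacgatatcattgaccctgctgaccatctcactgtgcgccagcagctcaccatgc
Npas4 probe 5, chr19:4987783-4987842, minus strand: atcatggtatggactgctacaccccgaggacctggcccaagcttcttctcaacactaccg
The next 2 probes cover part of the basic, DNA-contacting region of Fos and Fosb, and capitals mark the longest run, 9 bases, that they share.
Fos probe 3, chr12:86816543-86816602, plus strand: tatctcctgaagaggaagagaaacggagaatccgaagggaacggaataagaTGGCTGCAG
Fosb probe 3, chr7:19891908-19891967, minus strand: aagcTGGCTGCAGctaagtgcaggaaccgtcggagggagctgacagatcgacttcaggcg
These Fos and Fosb probes were well above background on 0 of the 12 arrays.

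How far a gene was measured differed between the 10 genes. Arc had 1 probe, which was well above background on 0 of 12 arrays, so no level, fold or difference is given for it. Dusp1 (4 of 4 probes), Atf3 (3 of 3), Nr4a1 (5 of 6), Junb and Ier2 (1 of 1 each) were read mainly or wholly by probes well above background on all 12 arrays. By contrast, this held for 1 of 4 probes of Fos, 1 of 4 of Fosb, 1 of 2 of Egr1 and 2 of 8 of Npas4. The gene value averages all probes on the log2 scale, and beside it a value from the probes well above background on all 12 arrays is given where they differ. The second value was chosen after the data were seen.

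In apex against middle, Junb and Npas4 passed the test, both lower at the apex, and Fos, Dusp1 and Nr4a1 also had negative values without passing it. The count was 2 of 10 genes called at an adjusted p of 0.05 (limma over all 12 arrays, Benjamini-Hochberg adjustment over all genes), where 4.42% of all genes were called higher at the apex and 7.62% higher in the middle turn. Over all probes, 8 of the 10 genes, with Arc counted among them, had a lower value at the apex. The median log2 difference of the 10 was -0.38 beside -0.07 over all genes. By the probes well above background on all 12 arrays, Fos had -0.87, Nr4a1 -0.41, Egr1 -0.24, Fosb -0.05 and Npas4 0.10. The other measured genes kept their values. In a sample of mixed tissue, fewer cells of a type and less RNA per cell cannot be told apart.

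Junb, whose product pairs with Fos proteins in AP-1, had scaled signals of 59.1, 78.4, 61.1 and 74.8 on the 4 apical arrays, 121, 138, 82.6 and 105 on the middle arrays and 62.0, 91.8, 76.1 and 95.3 on the basal arrays. Every middle array lay above every apical array, which was the case in either direction for 20.8% of all genes. The apex was lower than the middle turn by a log2 difference of -0.69 (SE 0.178, limma adjusted p = 0.0306), or 1.62-fold. The middle turn exceeded the base by 0.45 (SE 0.178), which did not pass (adjusted p = 0.0954), and their arrays overlapped. With the replicate number as a block in limma it passed (adjusted p = 0.0404), though the labels tie no number to a mouse. The order was apex, base, middle, and apex and base did not differ beyond their spread (-0.24, 95% interval -0.63 to 0.15). The call was lost when any of apical replicates 1, 2 or 3 or middle replicates 1, 2 or 4 was left out, with a highest adjusted p of 0.0780 and a difference that stayed between -0.83 and -0.58.

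Npas4, a factor induced by calcium entry in neurons, gave opposite answers by the 2 ways of reading it. Over all 8 probes the apex had 20.2, 19.5, 17.4 and 18.8, the middle turn 22.2, 25.0, 23.5 and 26.2 and the base 23.2, 18, 19.8 and 22.5, and the apex was lower than the middle turn by -0.35 (SE 0.088, limma adjusted p = 0.0288). Over the 2 probes well above background on all arrays, whose sequences are given above, the apex had 78.7, 85.7, 82.7 and 75.1, the middle turn 73.2, 74.5, 75.2 and 77.5 and the base 105, 99.3, 83.5 and 99. By these probes the base was the highest turn and each of its arrays but replicate 3 exceeded all 8 others. The middle turn was lower than the base by -0.36 (SE 0.069, limma adjusted p = 0.0033) and the apex by -0.26 (SE 0.069, adjusted p = 0.0077), while apex minus middle was 0.10 (95% interval -0.05 to 0.25). Of the other 6 probes, 4 were above background on no array, and the floor of such probes was higher on middle replicates 1, 2 and 4, as given above. Probe 2 was at 22.6, 25.3, 6.89 and 15.7 in the middle turn and between 7.08 and 8.80 at the apex. The all-probe call was lost without any of apical replicates 2, 3 or 4 or middle replicates 2 or 4, with adjusted p up to 0.0844.

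**Figure D1:**
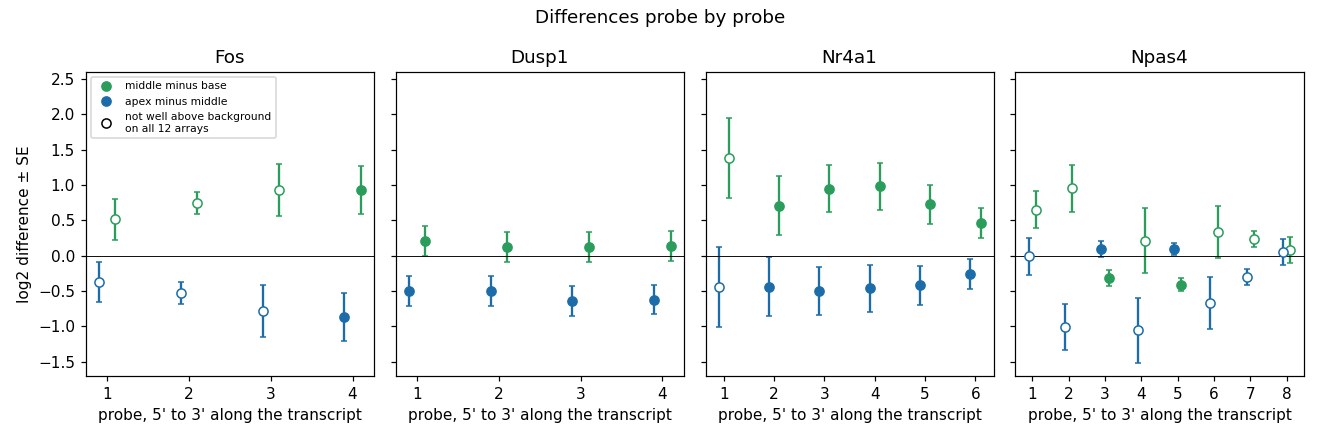
Log2 difference (± SE) between turns for each probe of Fos, Dusp1, Nr4a1 and Npas4, ordered from the 5′ to the 3′ end of the transcript, with filled points for probes well above background on all 12 arrays. The probes of Fos, Dusp1 and Nr4a1 share a sign in each comparison, whereas for Npas4 the 2 filled probes (-0.31 and -0.41, middle minus base) lie opposite to the 6 open ones.

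In middle against base, Fos passed the test and was higher in the middle turn. It was the only 1 of the 10 genes called, where 11.6% of all genes were called higher in the middle turn and 9.22% higher at the base, and no gene had separate arrays, as 24.0% of all genes had. Here the median log2 difference of the 10 was 0.34 over all probes, beside 0.04 over all genes. By the probes well above background on all 12 arrays, Fos had 0.93, Nr4a1 0.77, Egr1 0.30, Fosb 0.05 and Npas4 -0.36. At an unadjusted p under 0.05 there were 4 genes: Fos, Junb, Nr4a1 and Npas4.

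Fos, the inducible partner of Jun proteins, had 30.8, 33.8, 33.5 and 34.3 at the apex, 78.3, 64.3, 33.9 and 41.0 on the middle arrays and 32.7, 24.3, 26.1 and 38.9 at the base. The middle turn was split, with replicates 1 and 2 above every other array and replicates 3 and 4 near the rest. The middle turn exceeded the base by 0.78 (SE 0.24, limma adjusted p = 0.0400), or 1.72-fold, although base replicate 4 lay above middle replicate 3. By the probe at the 3′ end, the only 1 well above background on all arrays, the values were 142, 148, 111 and 132 at the apex, 408, 351, 143 and 169 on the middle arrays and 122, 127, 87.1 and 193 at the base. There the difference was 0.93 with a wider error (SE 0.326, adjusted p = 0.0514). Probe 2, shown above, was called on its own (0.75, adjusted p = 0.0123), but it was well above background on only 8 of the 12 arrays. It read 74.2, 66.1, 47.7 and 52.1 in the middle turn against 33.1, 30.5, 32.8 and 46.1 at the base. The gene's call was lost in 9 of the 12 fits that left out an array, namely any apical array, middle replicate 1 or 2, or base replicate 1, 2 or 3, with adjusted p up to 0.113 and a difference of 0.58 to 0.98. Apex and base did not differ beyond their spread (0.14, 95% interval -0.38 to 0.67).

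Nr4a1, an orphan nuclear receptor, was high on the same arrays as Fos. By its 5 probes well above background on all arrays it had 351, 439, 285 and 252 at the apex, 719, 579, 238 and 351 on the middle arrays and 237, 236, 233 and 320 at the base. Middle replicates 1 and 2 were again the highest of the 12 arrays, and middle replicate 3 was level with the base. The middle turn lay above the base by 0.77 (SE 0.297, limma adjusted p = 0.0750), and with all 6 probes by 0.87 (SE 0.335, adjusted p = 0.0901), neither of which passed. Without middle replicate 3 the all-probe difference was 1.16 and passed (adjusted p = 0.0191, against 0.0191 to 0.233 over the 12 fits that left out an array).

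**Figure D2:**
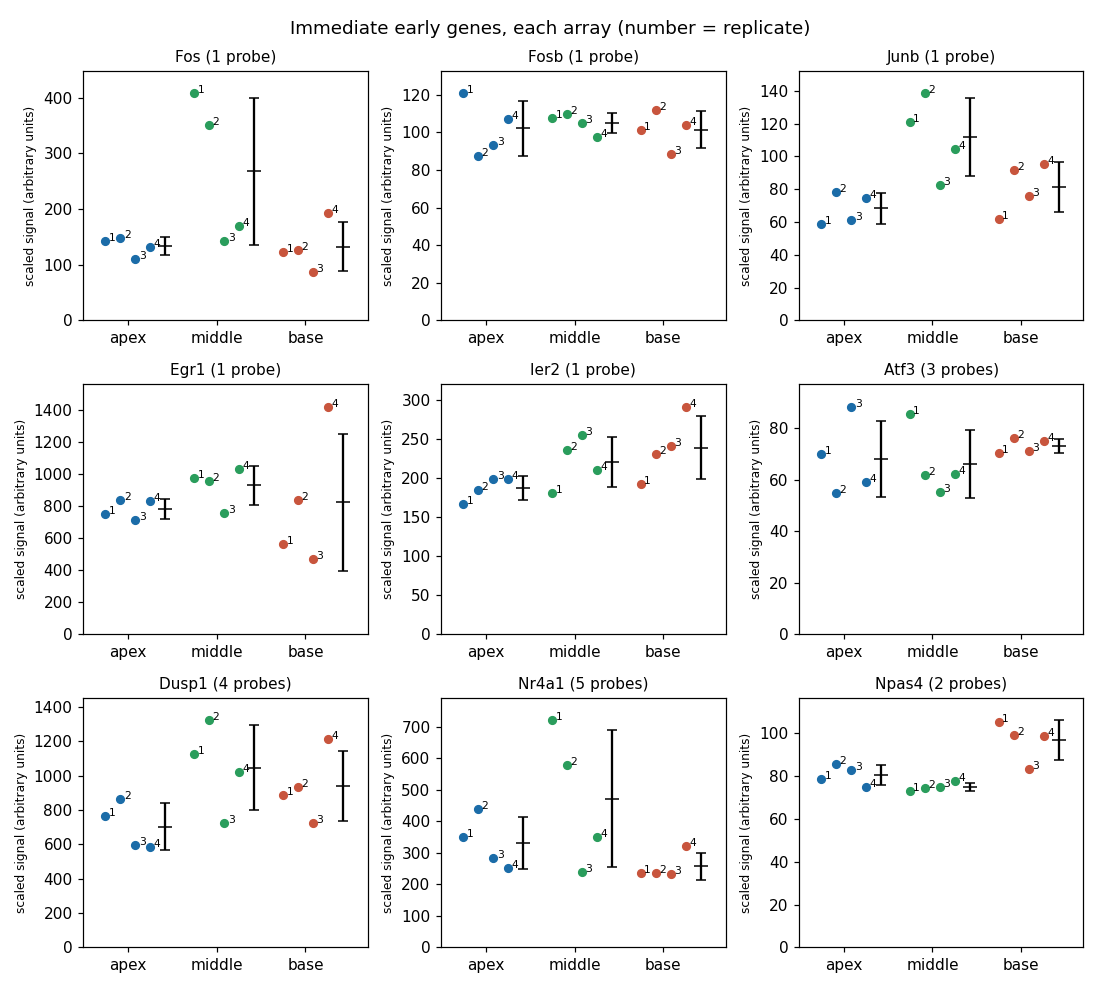
Scaled signal (arbitrary units, linear axis from 0) of 9 immediate early genes on each array, from the probes well above background on all 12 arrays, with the replicate number beside each point and the mean ± SD of the 4 arrays of a turn in black. Middle replicates 1 and 2 stand above the other arrays in Fos (408 and 351) and Nr4a1 (719 and 579), base replicate 4 stands out in Egr1 (1416), and Npas4 is highest at the base.

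Dusp1, which inactivates ERK, p38 and JNK and so closes the loop on these signals, had 765, 865, 598 and 583 at the apex, 1126, 1323, 724 and 1019 on the middle arrays and 889, 933, 728 and 1215 at the base. The apex had the lowest mean, and middle replicate 3 was the only 1 of the 4 middle arrays within the apical range. The difference between apex and middle was -0.56 (SE 0.206, limma adjusted p = 0.0949), and with the replicate block it passed (adjusted p = 0.0430). It also passed when middle replicate 3 was left out (-0.73, adjusted p = 0.0246, against 0.0246 to 0.212 over the 12 such fits). The same omission brought Fos past the test in apex against middle, at -0.84 (adjusted p = 0.0240), where it had -0.64 (adjusted p = 0.101) with all arrays.

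Egr1, a zinc finger factor that is a direct target of SRF, varied most at the base. Its probe well above background on all arrays had 745, 833, 714 and 827 at the apex, 970, 952, 754 and 1028 on the middle arrays and 562, 836, 467 and 1416 at the base. The 4 basal arrays thus spanned the whole range of the 12, and no comparison passed. By this probe the differences were 0.06 for apex minus base (limma adjusted p = 0.870), -0.24 for apex minus middle and 0.30 for middle minus base. With the dim second probe averaged in, they were 0.36 (SE 0.303, limma adjusted p = 0.401), -0.17 and 0.53 in the same order. Without base replicate 4 the value that includes the dim probe was called lower at the base. The differences were 0.67 for apex minus base (limma adjusted p = 0.0477) and 0.83 for middle minus base (adjusted p = 0.0392). Over all 12 fits that left out an array the adjusted p ran up to 0.928 and 0.517.

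The remaining 3 measured genes, Ier2, Atf3 and Fosb, passed in no comparison over all probes. Ier2 had 167, 184, 199 and 199 at the apex, 181, 237, 256 and 211 on the middle arrays and 193, 231, 241 and 292 at the base. Apex minus base was -0.34 (SE 0.133, limma adjusted p = 0.0631), just short of the threshold, and it passed among the probes well above background on all arrays (adjusted p = 0.0428), where fewer genes were tested. With the replicate block it passed too (limma adjusted p = 0.0157). It also passed without middle replicate 1 or base replicate 1, and the adjusted p over the 12 such fits ran from 0.0202 to 0.172. Atf3 had 70.2, 54.9, 88.4 and 59.1 at the apex, 85.7, 61.8, 55.1 and 62.2 on the middle arrays and 70.4, 76.1, 71.3 and 75.1 at the base, so that the basal arrays lay close together within the range of the others. Its apex minus base difference was -0.13, with a 95% interval of -0.47 to 0.22. Fosb, by its probe at the 3′ end, had 121, 87.6, 93.3 and 106.95 at the apex, 108, 110, 105 and 97.5 on the middle arrays and 101, 112, 88.4 and 104 at the base, and the 95% interval of middle minus base was -0.16 to 0.27. The all-probe value of Fosb was higher in the middle turn by 0.52 (SE 0.333) and included 1 spot, that of probe 1, which read 1190 on middle replicate 1 and between 5.15 and 7.23 on every other array.

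In apex against base, 0 of the 10 genes were called by limma, where 39.2% of all genes were (17.6% higher at the apex and 21.6% higher at the base). Ier2 alone had an unadjusted p under 0.05 in limma. The unmoderated test also called 0. No gene had separate arrays in the 2 turns, as 38.3% of all genes had. With a 2-fold minimum 0 of the 10 were called in any comparison, beside 4.47%, 0.390% and 2.66% of all genes in apex against base, apex against middle and middle against base. By probe, 1, 1 and 2 of the 34 were called in these comparisons, beside 34.4%, 5.90% and 13.8% of all probes. The fit on probes well above background on all 12 arrays called 2, Ier2 and Npas4, both lower at the apex, beside 50.9% of 16008 genes. It called Junb alone in apex against middle, beside 16.5%, and Npas4 alone in middle against base, beside 28.0%.

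**Figure D3:**
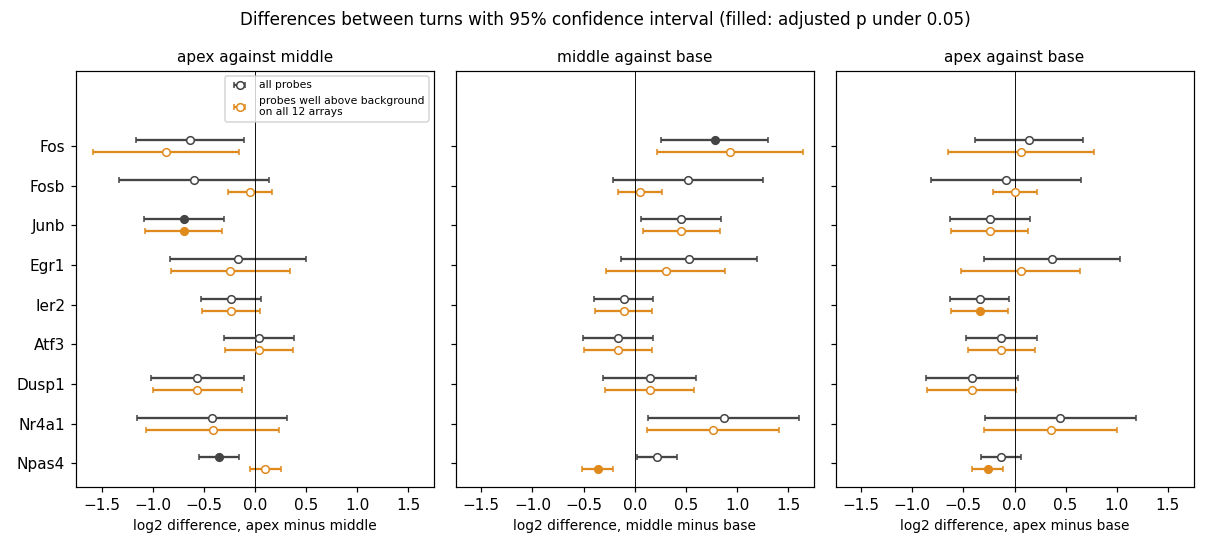
Log2 difference between turns with its 95% confidence interval for 9 immediate early genes in the 3 comparisons, from all probes (grey) and from probes well above background on all 12 arrays (orange), filled where the adjusted p was under 0.05. Between apex and base all grey points are open, and Npas4 is the gene whose points lie on opposite sides of 0 in apex against middle and in middle against base.

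The arrays of a turn differed more in these genes than in most. On the probes well above background on all 12 arrays, the SD between arrays of a turn, pooled over the 3 turns, was 0.52 log2 units for Fos, 0.48 for Nr4a1, 0.43 for Egr1, 0.32 for Dusp1 and 0.27 for Junb, beside a median of 0.10 over 16008 genes. Fos lay at the 98.7th percentile of these genes, Nr4a1 at the 98.2nd, Egr1 at the 97.6th, Dusp1 at the 95.1st and Junb at the 92.9th. The values of Fos, Egr1 and Junb rest on 1 probe each, those of Dusp1 on 4 and those of Nr4a1 on 5. The genes they were ranked among were not matched for number of probes or for signal, and the part of these in the ranks was not tested. Npas4 and Fosb were nearer the middle, at percentiles 45 and 73.9. This spread sets the size of a difference that 4 arrays per turn could show, so a p that missed the threshold does not show that the turns were alike.

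The same arrays were high or low in several genes at once. On base replicate 4, all 9 measured genes were above the mean of their turn, by a median of 0.30 log2 units, and 6 of them had their highest basal value there. On base replicate 3, 1 of 9 was above the mean and 6 had their lowest value. On middle replicates 1 and 2, 7 of 9 were above it, and on middle replicate 3 the count was 3, with 6 genes at their lowest of the turn. Median deviations of the 9 genes on the apical arrays stayed between -0.12 and 0.10. Over all probes, the median deviation of all measured genes was 0.04 on base replicate 4 and -0.03 on base replicate 3. These were the highest and lowest of the 12 arrays, with the same signs as the 9 genes. On middle replicates 1 and 2 it was -0.02 and -0.01, opposite in sign to the 9 genes, and on middle replicate 3 it was -0.01. How many of all genes lay above their turn mean was not counted. The within-turn deviations of Fos and Nr4a1 had r = 0.88 over the 12 arrays, those of Dusp1 and Nr4a1 0.84, those of Fos and Dusp1 0.82 and those of Fos and Junb 0.70, whereas Ier2 had -0.15 with Fos and Npas4 had 0.15. These are descriptions, since the points share arrays, scaling and turn means.

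Some other measures of these arrays did not run with the genes in every turn. The sum of 6 endothelial markers was highest on replicate 2 and lowest on replicate 3 of each turn. Cldn5 made up most of it, with geometric means of 5723, 7367 and 8214 at apex, middle and base. Kdr went the other way, with 140, 136 and 114. On apical replicates 1 to 4 the endothelial sum was 7728, 8186, 6334 and 7057. It was 9483, 9883, 8007 and 9067 on the middle replicates and 9814, 10664, 8897 and 10596 on the basal replicates. The neutrophil and marrow sum was 4465 and 8369 on middle replicates 1 and 2, and 954 and 753 on replicates 3 and 4, but on base replicate 4 it was 1069, the lowest of that turn. The neuronal sum on base replicate 3, where the genes were low, was 20099, the highest of the base, against 6793 on base replicate 4. Middle replicate 3 had 81.4% of its spots well above background against 77.4% to 77.7% on the other middle arrays. The part of these values in the result was not tested.

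**Figure D4:**
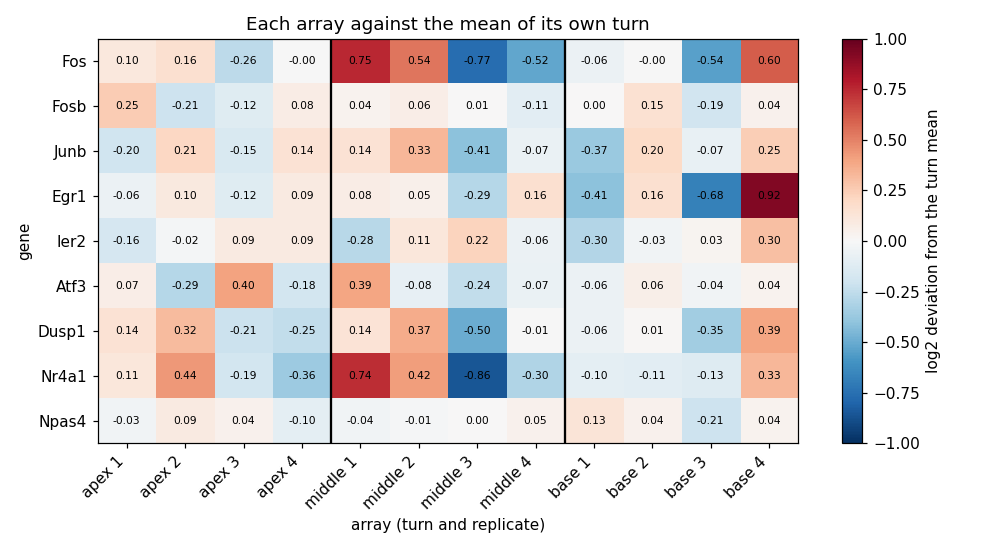
Log2 deviation of 9 immediate early genes on each array from the mean of the 4 arrays of its turn (red above, blue below), from the probes well above background on all 12 arrays. Base replicate 4 is above its turn mean in all 9 genes, with Egr1 at 0.92, while Fos and Nr4a1 range from -0.77 and -0.86 on middle replicate 3 to 0.75 and 0.74 on middle replicate 1.

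The pathway around these genes was read from 104 related genes in 6 lists, all of them on the array. In apex against base 42 of them were called, 19 higher and 23 lower at the apex, beside the background of 39.2%. In apex against middle 7 were called (2 higher, 5 lower at the apex), beside 4.42% of all genes higher and 7.62% lower. In middle against base 28 were called (15 higher, 13 lower in the middle turn), beside 11.6% of all genes higher and 9.22% lower.

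Among 12 AP-1 relatives, 6 were called in apex against base, 3 in each direction. Jdp2, a repressor that binds AP-1 sites, was higher at the apex by 0.46 (limma adjusted p = 0.00096), and Batf by 0.33 (adjusted p = 0.0091), whereas Atf4, the effector of the integrated stress response, was lower by -0.43 (adjusted p = 0.00057). Atf4 was also the only 1 called in apex against middle, at -0.25 (adjusted p = 0.0398). In middle against base 3 were called, Jdp2 and Batf higher in the middle turn and Mafk lower by -0.21 (adjusted p = 0.0100).

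Of 19 other inducible transcription factors, 6 were called in apex against base (4 higher at the apex), 0 in apex against middle and 5 in middle against base (4 higher in the middle turn). Egr2, which directs myelination in Schwann cells, had a geometric mean signal of 337 at the apex, 351 in the middle turn and 150 at the base. It was 2.25-fold higher at the apex than at the base (adjusted p = 0.00099) and 2.34-fold higher in the middle turn (adjusted p = 0.0025). Over its 2 probes these are log2 differences of 1.17 and 1.23. By the 1 well above background on all 12 arrays they were 0.88 and 1.07 (limma adjusted p = 0.0036 and 0.0031). Myc, a growth regulator, exceeded its basal level at the apex by 0.97 (adjusted p = 0.0019) and in the middle turn by 0.93 (adjusted p = 0.0065). By its 1 probe well above background on all 12 arrays these differences were 1.58 and 1.28. Egr3 was higher at the apex than the base by 0.60 (adjusted p = 0.0408), with no probe bright on every array, and Nr4a2 was higher in the middle turn by 0.64 (adjusted p = 0.0237). The 6 Schwann cell markers were all called higher at the apex and middle turn than at the base, with a summed signal of 13049 to 14712 at the apex, 13932 to 16759 in the middle turn and 6489 to 12462 at the base, and their part in the Egr2 difference was not tested.

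Among 27 inducible effectors, 11 were called in apex against base, 8 of them lower at the apex. Edn1, the vasoconstrictor endothelin, was lower by -0.92 (adjusted p = 0.00020), Ccl2, a monocyte chemokine, by -0.89 (adjusted p = 0.0286) and Ctgf, a matrix protein, by -0.70 (adjusted p = 0.00021). Edn1 and Ctgf were the 2 called in apex against middle, lower at the apex by -0.58 and -0.39. In middle against base 11 were called, 4 higher in the middle turn, among them Plk2 (0.51, adjusted p = 0.0050) and Trib1 (0.46, adjusted p = 0.0218), and 7 lower, led by Ccl2 (-1.0, adjusted p = 0.0307). By its 2 probes well above background on all 12 arrays, Ccl2 had -0.66 for apex minus base and -0.80 for middle minus base. Markers of the lateral wall moved with the genes that were higher at the base: the 5 fibrocyte markers summed to 432633 to 480213 at the apex and 781403 to 882225 at the base, and their part in these differences was not tested.

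The 14 genes listed as ERK pathway feedback inhibitors, relatives of Dusp1 in function, moved both ways. They are MAP kinase phosphatases and Spry and Spred genes, and not all of them are specific to ERK. In apex against base 7 were called, with Spry2 higher at the apex (0.85, adjusted p = 0.00058) and Spry4 (-0.78, adjusted p = 0.00035) and Dusp7 (-0.49, adjusted p = 0.00018) lower. None was called in apex against middle (0 of 14 by limma), and in middle against base 5 were, with Spry2 at 0.92, Dusp8 at 0.54 and Spry4 at -0.51. Of 23 upstream factors and kinases, 11 were called in apex against base, 3 in apex against middle and 4 in middle against base. Camk4, a calcium-dependent kinase that phosphorylates CREB, was 2.19-fold higher at the apex and 2.72-fold higher in the middle turn than at the base (adjusted p = 0.0138 and 0.0094). Over its 11 probes these are log2 differences of 1.13 and 1.44. By the 3 probes well above background on all 12 arrays they were 0.56 and 0.80 (limma adjusted p = 0.0200 and 0.0068). Map2k2, which activates ERK, was lower at the apex than at the base by -0.53 (adjusted p = 0.00011). Elk3, a partner of SRF, was lower at the apex by -0.41 (adjusted p = 0.0075). In apex against middle, Rps6ka5 and Rps6ka1 were higher at the apex by 0.27 and 0.22 and Map2k2 was lower by -0.23, and Rps6ka3 was higher in middle than in base by 0.25 (adjusted p = 0.0106).

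The 9 heat shock genes, which respond to stress and handling by another route, held 1 called gene in apex against base, Hspb1 (-0.51, adjusted p = 0.0015), 1 in apex against middle, Hspe1 (-0.22, adjusted p = 0.0486), and 0 in middle against base.

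**Figure D5:**
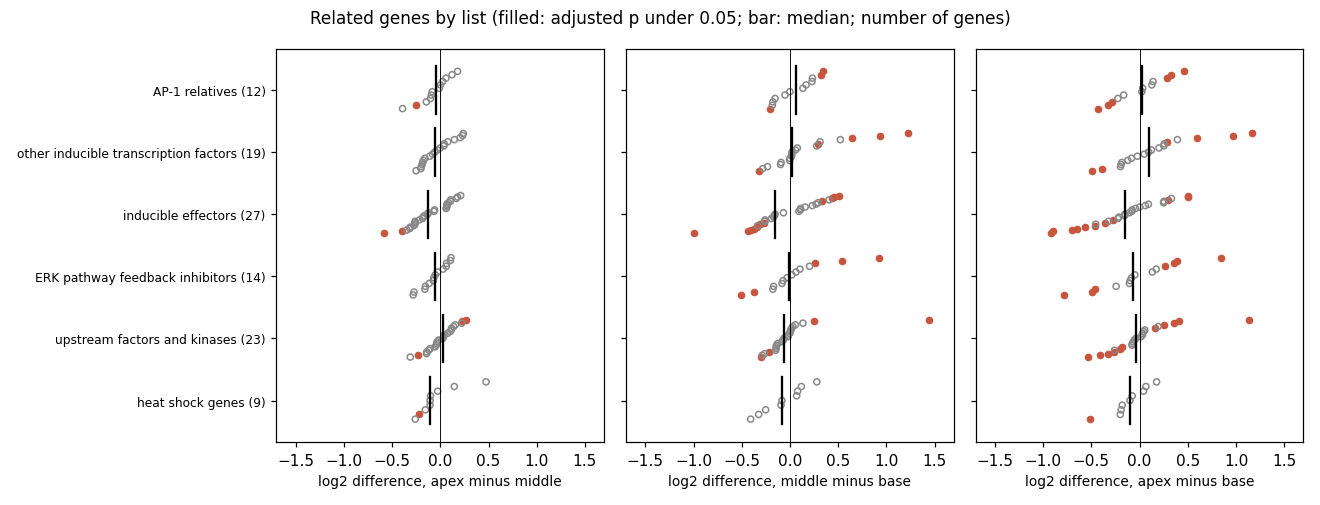
Log2 difference of each of the 104 related genes, over all probes, in the 3 comparisons by list, filled where the adjusted p was under 0.05, with the list's median as a bar. Filled points lie on both sides of 0 in 5 of the 6 lists between apex and base, and Egr2 and Camk4 lie farthest to the right.

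Genes most like the group were found by their correlation over the 12 arrays with the mean of the 9 measured genes. By level these were Fbxw19, Gpr128, Itgad, Scn11a, Ms4a2 and Iqgap3, with r from 0.90 to 0.93, and by within-turn deviation they included 1700039E15Rik, Gpr128, Nudt3, Rnase10 and Acsm2, with the same range. When only probes well above background on all 12 arrays were used, 0 of 6 were shared by either measure, so the order depends on the dim probes. Trib1, a pseudokinase, ranked highest of the related lists by within-turn deviation, with r = 0.79 (rank 77 of 15999) and 0.70 by the brighter probes (rank 102). Cebpb, an acute-phase factor, had r = 0.69 by the brighter probes. It read 6279 and 6516 on middle replicates 1 and 2, which were also high in Fos and Nr4a1, against 3029 and 3673 on replicates 3 and 4. On replicates 1 to 4 it read 4232, 4641, 3557 and 3848 at the apex and 4066, 4259, 3216 and 3437 at the base. Replicates 1 and 2 of Cebpb thus lay above replicates 3 and 4 in every turn. On base replicate 4, where all 9 genes were high, it had 3437.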

How the data were processed

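Expression in apical, middle and basal turns was measured on 12 exon arrays, 4 per turn. The authors scanned the arrays and used Agilent Feature Extraction 10.7.3.1, and the deposited values are fluorescence intensities per spot, after background subtraction by that software. The deposited series matrix holds the same intensities, unscaled.

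Of 180880 spots, 7914 controls were left out, flagged spots were left out, and 119 of 165984 probes that then lacked a value were dropped. Processed signals were scaled to the 75th percentile (median of arrays 641), and spots, then probes of a gene, were averaged as log2 values in R 4.3.3 with the data.table package (1.17.8). Turns were compared with limma 3.58.1 (lmFit, eBayes, all 12 arrays), with Benjamini-Hochberg adjustment over 19505 genes or 165865 probes and a threshold of 0.05. The number of arrays and the spread between them limit the precision. P values measure the spread between these arrays, which may be technical.

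Named were the 10 genes, of each related list up to 3 called genes with the largest difference per comparison, and the 6 most alike by each of the correlations, of which 1 is not reported here. Cebpb and the rank of Trib1 were picked after their values were seen. The genes and lists were chosen with earlier results of these data known. Alternatives covered normalization, background correction, gene summary, dim-probe filters, a pseudocount of 16, the test, a replicate block and omission of each array. Scripts were tested on simulated data. Promoters came from RefSeq.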

Additional observations from a re-analysis of the deposited data

Results flagged for a closer look

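Of 30 groups of 4 arrays tested for a value far from the other arrays of its turn, 1 was picked out, where chance gives about 1 in 20 groups. Egr1 on apical replicate 4 had a scaled signal of 120, below the 148 to 153 of the other apical arrays. The gene value averages 2 probes, and on that array the dim probe near the 5′ end, well above background on 2 of the 12 arrays, read 17.5 against 28.1 to 31.1, while the other read 827 against 714 to 833.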

How the results depend on the processing

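For apex against base, where 0 of the 10 genes were called, quantile normalization called 2, scaling to the median 2, the spike-in probes 5, normexp 1, a filter on dim probes by turn (above background on the 4 arrays of at least 1 turn) 1, the filter on all 12 arrays 2, and the replicate block 1, all lower at the apex. For apex against middle, 2 became 5 with the spike-in probes, 1 with normexp, linear means, either filter on dim probes or 16 added, and 0 with a 2-fold minimum. For middle against base, 1 became 0 with quantile normalization, linear means, the unmoderated test, the arrays of 2 turns only or a 2-fold minimum, and 2 with the replicate block. The count stayed at 1 but Fos was lost with the spike-in probes (adjusted p = 0.0802), where Atf3 was called lower in the middle turn (-0.44, adjusted p = 0.0465), and with the median of probes (adjusted p = 0.0572), where Npas4 was called higher (0.76, adjusted p = 0.0111). Leaving out 1 array gave 0 to 1, 0 to 4 and 0 to 3 genes, the highest without middle replicate 3 in the latter comparisons.

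Related genes called, 42, 7 and 28, became 80, 31 and 47 with the spike-in probes and 2, 0 and 2 with a 2-fold minimum. In apex against middle they were 4 with quantile normalization, 3 with the median of probes and 2 with the arrays of 2 turns only. With 1 array left out they were 36 to 44, 2 to 9 and 21 to 31. Member probes called, 1, 1 and 2, became 3, 2 and 3 with quantile normalization, 5, 2 and 3 when scaled to the median, 13, 10 and 3 with the spike-in probes, 2, 2 and 4 with normexp and 4 and 2 with the replicate block. With 1 array left out they were 1 to 3, 0 to 6 and 2 to 11.

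The spike-in scaling moved the median of all genes to -0.52, -0.28 and -0.23, so its counts hold that shift. Npas4 reversed: apex minus middle was 0.0835 with the dim-probe filter by turn and 0.10 with the filter on all 12 arrays, and middle minus base was -0.36 with the latter. Its construction leaves out the dim probes. Over single genes and 28 settings, 769 results kept their side of the threshold, 29 newly passed, 33 no longer passed and 3 called values reversed. Values that were not called changed sign in some settings, such as Fos in apex minus base, at -0.34 with the spike-in probes. The cause was not tested.

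Same-numbered arrays had r from -0.04 to 0.23 over 12 pairs, 6 of them over 0.1, and 8 of 12 arrays correlated best with their own number. Their mean r was 0.09, beside -0.03 for the other pairs. Nfil3, picked after its values were seen, read 1588 to 1801 on replicates 1 and 2 of every turn. On replicates 3 and 4 it read 602 to 864. The numbers thus hold something that the turns share, but the labels do not say that a number marks a mouse. The replicate block added Ier2 in apex against base (adjusted p = 0.0157), Dusp1 in apex against middle (adjusted p = 0.0430) and Junb in middle against base (adjusted p = 0.0404), and it removed no call. The slide as a block could not be fitted, since each turn had its own. The deposited value table equals the scanner signal and gave no other value.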
